A study of Homo sapiens with 30 samples.

Results

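ZIC1 and ZIC4 on chromosome 3 and ZIC2 and ZIC5 on chromosome 13 are 4 genes of the ZIC family, and each pair lies head to head and is transcribed outward from a short shared interval. Open chromatin around them was read from the peaks that overlapped the GRCh38 body of a member with 100 kb on each side. These windows held 139 of the 493444 regions that peaks of the whole series merged into, 65 around ZIC1-ZIC4 and 74 around ZIC2-ZIC5. Members were taken by gene name and position and not by any measured value.

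ZIC proteins are transcription factors with C2H2 zinc fingers that bind GC-rich DNA and can also act as partners of GLI factors, the transcriptional effectors of hedgehog signalling. The genes are active in the early neural plate and then mainly in the dorsal neural tube, the neural plate border and the cerebellar primordium. Loss of ZIC2 is known from holoprosencephaly, a failure of forebrain division, and deletions that remove ZIC1 and ZIC4 from the Dandy-Walker malformation of the cerebellum. ZIC2 is also known to act in pluripotent stem cells.

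The cells were wild-type H1, a human embryonic stem cell line, and the assay was OmniATAC-seq, which marks accessible DNA by Tn5 insertion in nuclei of 50000 cells per library. The labels give 30 libraries in 10 groups of 3 replicates. Undifferentiated cells (hPSC) were taken on day 0. The day 1 group (DE, definitive ectoderm) had 1 day of A8301 at 1 µM, trametinib at 250 nM, C59 at 1 µM and LDN193189 at 100 nM, which inhibit TGF-beta receptors, MEK, WNT secretion and BMP receptors. All later groups passed through that step. Anterior neural ectoderm (aNE, day 2) then had A8301, LDN193189 and C59, and posterior neural ectoderm (pNE, day 2) had A8301, LDN193189, the retinoic acid receptor agonist TTNPB at 50 nM, FGF2 at 20 ng/mL and the tankyrase inhibitor XAV939 at 1 µM. Thiazovivin, a survival factor after passaging, was in both at 1 µM. On day 4 each day 2 population had been kept in a medium for telencephalon, for midbrain or for hindbrain, giving aNE_T, aNE_M, aNE_H, pNE_T, pNE_M and pNE_H. The composition of those day 4 media is not given in the sources used here. The day 2 groups aNE and pNE were plated at 37500 cells per square cm. Cells meant for day 4 were seeded at 75000 per square cm on the anterior path and at 150000 on the posterior path. Density and origin thus cannot be told apart on day 4, nor can density and day between day 2 and day 4.

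The deposited data were 10 lists of peak positions, 1 per group, with no score and no value per library. No value below therefore has a replicate error, read depth is unknown, and differences are between lists. A list is called open at a region where it has a peak. No peak may also mean signal under the caller's threshold, and in these bulk cultures fewer cells with an open site and a less open site in every cell cannot be told apart. The lists held between 62 ZIC peaks in aNE and 99 in pNE_H, and in all between 75.5 Mb of open sequence in aNE and 129 Mb in pNE_H. As a check of the labels, marker promoters were read where a sequence table gave them, and most had a peak in all 10 lists. Of 3 pluripotency genes DPPA4 and LIN28B had a peak in every list, and NANOG in hPSC, DE, aNE, pNE and aNE_T and in none of the other 5. Of 3 posterior genes CDX2 and GBX2 had a peak in every list, and HOXB1 in all but the 3 aNE-derived ones. Of 4 anterior genes HESX1, LHX2 and RAX had a peak in every list, and OTX2 in all but pNE_T and pNE_H. Of the 4 neural markers, HES5 lacked a promoter peak in aNE_H and PAX6, SOX1 and SOX2 had one in every list. Promoters of 2 of the 5 genes listed for other cell types, GATA6 and TBXT, could be checked, and both had a peak in all 10 lists.

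The sequences before the ZIC start sites are shown because cover by peaks differed between them. RefSeq (GRCh38.p14) gives 9 start windows of 300 bases for the 4 genes, from 250 bases before to 50 bases after each start. The 250 bases upstream are printed 5′ to 3′ on the strand of the gene for the outermost start of each gene, and for an inner ZIC4 start 14161 bp inside the gene that was open where the outer one was not. Capitals mark CG dinucleotides, the target of DNA methylation in vertebrate genomes.
ZIC1, chr3:147409115-147409364, plus strand: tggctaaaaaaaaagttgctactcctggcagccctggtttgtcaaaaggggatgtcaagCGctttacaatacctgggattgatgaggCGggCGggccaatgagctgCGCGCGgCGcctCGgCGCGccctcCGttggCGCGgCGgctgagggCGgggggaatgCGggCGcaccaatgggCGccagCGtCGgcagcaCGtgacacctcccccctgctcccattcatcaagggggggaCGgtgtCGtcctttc
ZIC4 outer start, chr3:147406544-147406793, minus strand: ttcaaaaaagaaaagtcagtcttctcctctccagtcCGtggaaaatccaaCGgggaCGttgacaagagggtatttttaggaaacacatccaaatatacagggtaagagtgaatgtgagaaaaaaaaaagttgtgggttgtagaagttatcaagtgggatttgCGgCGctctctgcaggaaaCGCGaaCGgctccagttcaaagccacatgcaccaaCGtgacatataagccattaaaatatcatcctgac
ZIC4 inner start, chr3:147392383-147392632, minus strand: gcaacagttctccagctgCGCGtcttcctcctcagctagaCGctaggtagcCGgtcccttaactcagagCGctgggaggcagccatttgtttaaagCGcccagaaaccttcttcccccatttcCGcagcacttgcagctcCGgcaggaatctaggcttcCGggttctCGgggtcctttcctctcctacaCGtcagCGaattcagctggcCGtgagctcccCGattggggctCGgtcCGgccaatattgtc
ZIC2, chr13:99981534-99981783, plus strand: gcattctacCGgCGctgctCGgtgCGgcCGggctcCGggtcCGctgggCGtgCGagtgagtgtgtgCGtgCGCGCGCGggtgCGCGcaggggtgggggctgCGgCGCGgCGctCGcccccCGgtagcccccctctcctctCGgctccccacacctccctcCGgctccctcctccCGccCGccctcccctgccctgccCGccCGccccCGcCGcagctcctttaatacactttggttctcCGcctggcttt
ZIC5 outer start, chr13:99971910-99972159, minus strand: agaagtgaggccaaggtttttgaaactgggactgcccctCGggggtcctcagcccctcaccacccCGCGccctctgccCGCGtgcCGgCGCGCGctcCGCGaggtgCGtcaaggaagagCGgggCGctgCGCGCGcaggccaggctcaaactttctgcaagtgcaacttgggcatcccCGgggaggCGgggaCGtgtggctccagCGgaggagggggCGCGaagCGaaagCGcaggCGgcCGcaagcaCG

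The upstream sequences of ZIC2, ZIC5 and ZIC1 were rich in CG dinucleotides, and that of the outer ZIC4 start was not. ZIC2 held 31 in 250 bases, ZIC5 28 and ZIC1 23, against a median of 11 over 35116 annotated promoters. The outer ZIC4 start held 9 and the inner start 16. Divided by the number expected from C and G content, these were 0.792 and 0.756, against a median of 0.558. Starts not printed did not follow the order of CG number and cover. The ZIC4 start 1023 bp inside held 7 and had a peak in 9 lists. The ZIC5 start 2737 bp inside held 12 and had a peak in none. Among the printed starts GC content followed the order of CG number. It was 75.6% for ZIC2, 70.4% for ZIC5, 64.4% for ZIC1, 58.8% for the inner ZIC4 start and 42.8% for the outer one. Over all promoters the median number of CG dinucleotides was 21 where all 10 lists had a peak, 4 where 1 to 9 lists did and 2 where no list did. Of the 6 motifs searched on both strands in these 250 bases, none matched in any of the 9 member windows. They were CAGCAGG for ZIC (in 8.48% of all promoters), GACCACCCA for GLI (0.199%), a direct repeat of the retinoic acid receptor (0.00285%), ATTTGCAT for POU factors (1.63%), TAATTA for homeodomains (4.35%) and ACAAAG for SOX and TCF factors (13.7%). No match says only that these letters are not in these windows.

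ZIC2 and ZIC5 had open promoters in every population from pluripotent cells onward. The peaks covered all 300 bases of the ZIC2 window and of the ZIC5 windows at the outer start and 142 bp inside it in all 10 lists, and the innermost ZIC5 start, 2737 bp inside, had no peak in any. ZIC1 was open in all 10 lists too, with 266 bases covered in hPSC, 220 in DE, 291 in aNE, 288 in aNE_H and 300 in the other 6. DE had the least cover of ZIC1, and pNE and all 3 pNE-derived lists covered it in full. Over all annotated promoters 53.2% had a peak in all 10 lists and 30.7% in none.

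ZIC4 differed from its partner: its outermost start had no peak in any list. The start 1023 bp inside the gene was covered by 249 bases in hPSC, 204 in DE, 98 in aNE, 194 in pNE, 176 in aNE_T, 157 in aNE_M, 164 in aNE_H, 100 in pNE_M and 300 in pNE_H, and by none in pNE_T. The start 2259 bp inside had no peak in any list. The start 14161 bp inside was open in all 10, with 124 bases covered in DE, 244 in each of pNE and aNE_H and 300 in the other 7. So the ZIC4 window open throughout lay deep in the gene. In pNE_T no peak reached the window 1023 bp inside, but 563 bp were covered in the region that holds this window, chr3:147404677-147405887.

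**Figure D1:**
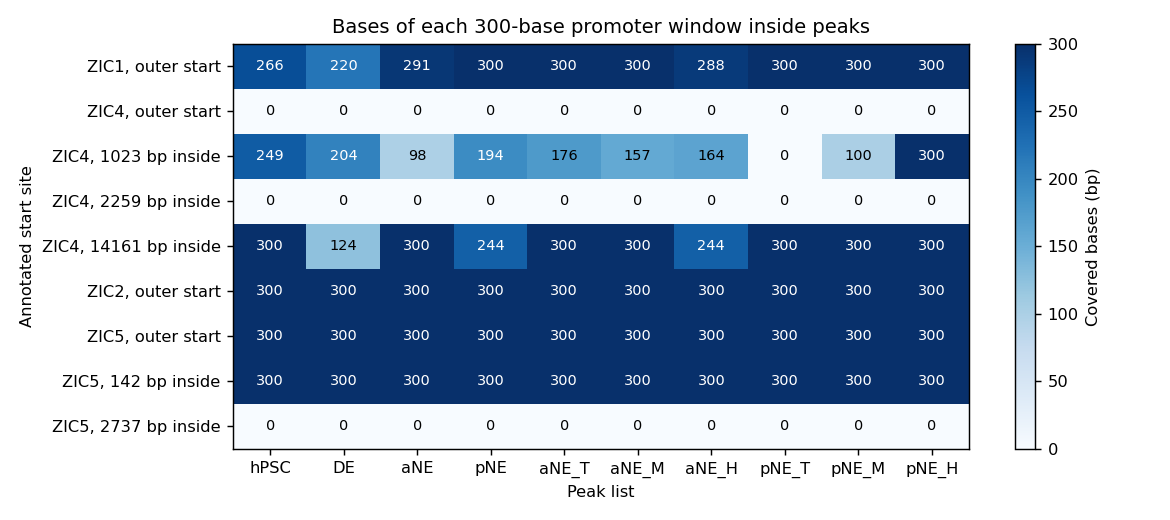
Bases of each 300-base start window inside peaks (colour and number, 0 to 300 bp) for the 9 annotated start sites of ZIC1, ZIC4, ZIC2 and ZIC5 (rows) in the 10 peak lists (columns). The ZIC2 window and 2 of the 3 ZIC5 windows are fully covered in every list, and the outer ZIC4 window is empty in every list.

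The regions at the gene ends were wider than the start windows. The ZIC2 start lay in a region of 2018 bp, chr13:99980230-99982247, of which the lists covered between 1449 bp in pNE_M and 1909 bp in aNE. The ZIC5 start lay in a region of 2297 bp, chr13:99970345-99972641, covered by 1739 bp in DE and 2289 bp in pNE_H at the extremes. Both start regions were thus wide in every list. A narrow region 6.1 kb beyond the ZIC2 start, just past the end of the gene, chr13:99987740-99988087, was open in all 10 lists, with 255 to 344 bp covered. The ZIC1 start lay in a region of 1281 bp, chr3:147408698-147409978, which was covered by 681 bp in hPSC, 508 in DE, 789 in aNE, 1170 in pNE, 1028 in aNE_T, 917 in aNE_M, 827 in aNE_H, 1176 in pNE_T, 1050 in pNE_M and 964 in pNE_H. Cover of the ZIC1 start region was thus lowest on days 0 and 1, and in each medium it was higher in the pNE-derived than in the aNE-derived list. Next to it, chr3:147410207-147410380 was open in aNE_T, pNE_T and pNE_H only, with 126 to 174 bp covered. The region that holds the ZIC4 start 1023 bp inside, chr3:147404677-147405887, was open in all 10 lists, with between 426 bp in pNE and 997 bp in pNE_H.

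At the far end of ZIC4 the populations differed more. The region chr3:147384345-147385136 just beyond the gene was open in 9 lists with 335 to 785 bp covered, most in hPSC and DE, and had no peak in pNE_T. Its neighbour chr3:147385396-147385617 was open in hPSC alone. Inside the gene and inside the antisense transcript ZIC4-AS1, chr3:147386928-147387819 was open on day 4 only, with 131 bp in aNE_H, 892 in pNE_T, 400 in pNE_M and 430 in pNE_H. The ATAC signal has no strand, so ZIC4 and ZIC4-AS1 cannot be told apart there.

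The order of the lists by open sequence differed between the windows. Open sequence in the ZIC1-ZIC4 window was 14440 bp in hPSC, 12651 in DE, 12969 in aNE, 14254 in pNE, 13662 in aNE_T, 15008 in aNE_M, 14953 in aNE_H, 13851 in pNE_T, 15573 in pNE_M and 19572 in pNE_H. The order ran from DE at the bottom to pNE_H at the top, and 9 of the 10 values lay between 12651 and 15573 bp. In the ZIC2-ZIC5 window it was 19599 bp in hPSC, 20640 in DE, 16786 in aNE, 17550 in pNE, 19223 in aNE_T, 17270 in aNE_M, 16143 in aNE_H, 14193 in pNE_T, 15153 in pNE_M and 21977 in pNE_H. Here hPSC and DE were near the top and pNE_T and pNE_M at the bottom. With 1 list per group no pair of neighbours in either order can be told apart from error.

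The pNE_H list was the longest of the series, so the levels were also divided by the open sequence of each list. Per Mb of open sequence the ZIC2-ZIC5 window had 231 bp in hPSC, 220 in DE, 222 in aNE, 204 in pNE, 221 in aNE_T, 189 in aNE_M, 192 in aNE_H, 159 in pNE_T, 180 in pNE_M and 170 in pNE_H. On this scale the highest level was in pluripotent cells and the 3 lowest were the 3 pNE-derived lists, all below the 3 aNE-derived ones. The median protein-coding window had the same pattern, so it is not particular to ZIC2-ZIC5. That window held 11824 bp in hPSC, whose list had 84.8 Mb, and 14580 bp in pNE_H, whose list had 129 Mb. Per Mb it was also highest in hPSC and lowest in the 3 pNE-derived lists. The ZIC1-ZIC4 window had 170, 135, 172, 165, 157, 164, 178, 155, 185 and 152 bp per Mb in the same order of lists. There DE was lowest and pNE_M highest, and the origins overlapped.

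**Figure D2:**
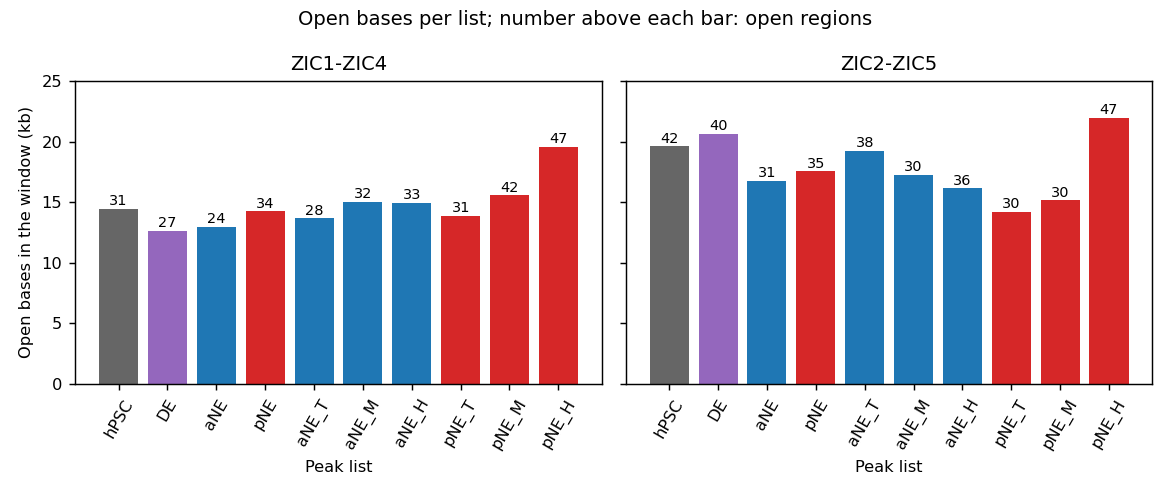
Open sequence (kb, bars from 0) in the ZIC1-ZIC4 and ZIC2-ZIC5 windows in each of the 10 peak lists, with the number of open regions above each bar and colours for day 0, day 1, aNE and its derivatives (blue) and pNE and its derivatives (red). The pNE_H bar is the highest in both panels, at 47 open regions each; there is 1 list per bar and no error.

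A core of regions stayed open in every population, and other regions were open in a single list. In the ZIC1-ZIC4 window 16 of 65 regions (24.6%) were open in all 10 lists, and in the ZIC2-ZIC5 window 14 of 74 (18.9%), against 16.5% of all merged regions. Their median width was 745.5 bp and 875 bp, against 181 bp and 162 bp for regions open in a single list. A region is the union of the overlapping peaks of all lists, so regions open in more lists are wider in part by construction. Single-list regions made up 15 of 65 (23.1%) and 22 of 74 (29.7%), where the genome had 33.5%. The core held 77.8% of the open ZIC1-ZIC4 sequence in aNE and 53.0% in pNE_H, and 70.6% and 57.1% of that of ZIC2-ZIC5 in the same lists, so pNE_H carried the most sequence outside the ZIC1-ZIC4 core. DE, at 52.4%, was lowest for ZIC2-ZIC5. Across all regions the share ran from 48.6% in pNE_H to 71.5% in aNE.

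Apart from the regions at the gene ends, the widest core regions lay in ZIC4 and in the flanks. In the ZIC1-ZIC4 window they were chr3:147396998-147398621 inside ZIC4 (850 bp covered in pNE_T to 1510 in aNE_T), chr3:147377300-147378450 beyond its far end (854 bp in aNE_H to 1017 in DE) and chr3:147513593-147514709 at 104.8 kb past the ZIC1 start (473 bp in pNE_M to 1034 in aNE). Around ZIC2 and ZIC5 they were chr13:99990449-99992132 (997 bp in pNE_T to 1636 in aNE_H), chr13:99956928-99958192 at the promoter of the lncRNA CLYBL-AS3 (734 bp in pNE_H to 1228 in hPSC) and chr13:99892065-99893294 in the CLYBL gene (393 bp in aNE_H to 1187 in aNE). Core regions were also unevenly spaced. From the ZIC2 start onward 6 regions in a row, over 17.9 kb up to the promoter of LINC00554, were open in all 10 lists, while the longest such run around ZIC1-ZIC4 had 3 regions over 13.0 kb, from inside ZIC4 to the ZIC1 start.

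Sorted by the days on which they were open, fewer regions of the ZIC2-ZIC5 window than of the ZIC1-ZIC4 window belonged to day 4 alone. Open on day 4 only were 22 ZIC1-ZIC4 regions (33.8%) and 19 ZIC2-ZIC5 regions (25.7%), against 35.0% of all regions. Open on days 0 or 1 and again on day 4 but not on day 2 were 2 (3.08%) and 9 (12.2%), against 7.51%. Regions open at all stages but not in all lists numbered 11 (16.9%) and 18 (24.3%), against 17.2%. The widest of these around ZIC2-ZIC5 were chr13:100063382-100064630, with no peak in hPSC or pNE_H, and chr13:100050217-100051414, with none in pNE_T. The day 4 share lay near or below that of the genome in both windows, and the other 2 shares lay above that of the genome around ZIC2-ZIC5. Around ZIC1-ZIC4 the share of days 0 or 1 and day 4 lay below the genome share, and that of all stages lay near it. The difference between the windows was not tested.

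The remaining classes were small. On days 0 and 1 only, 4 ZIC1-ZIC4 regions (6.15%) and 6 ZIC2-ZIC5 regions (8.11%) were open, both under the genome share of 12.9%. On days 0 or 1 and day 2 but not on day 4 there were 2 (3.08%) and 0 (0.0%), where the genome had 1.57%, and on day 2 only 2 (3.08%) and 3 (4.05%), where it had 1.37%. From day 2 onward, 6 (9.23%) and 5 (6.76%) were open, near the genome share of 7.95%. The class open on days 0 and 1 only was thus small in both windows.

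**Figure D3:**
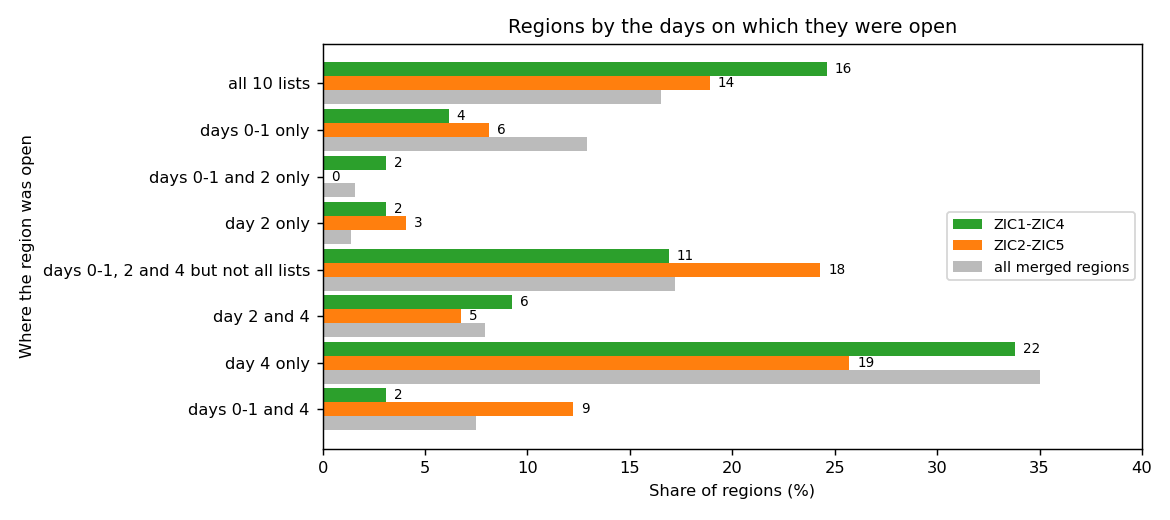
Share of regions (%) in each class of days on which a region was open, for ZIC1-ZIC4 (green, 65 regions), ZIC2-ZIC5 (orange, 74 regions) and all 493444 merged regions (grey); numbers at the bars are region counts. Day 4 only is the largest class in both windows, with 22 and 19 regions, and ZIC2-ZIC5 has 9 regions open on days 0 or 1 and on day 4 but not on day 2.

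Examples of the early class lay beyond the far end of ZIC4. The region chr3:147371861-147372234 was covered by 302 bp in hPSC and 344 in DE, and chr3:147372554-147372770 by 217 and 166, with no peak in any later list. Farther out, chr3:147298497-147298903, was open in hPSC alone with 407 bp. The early ZIC2-ZIC5 regions were narrower, at 188 bp or less for the 3 widest, chr13:99884625-99884812, chr13:99864705-99864872 and chr13:99974932-99975070. The last of these lay between ZIC5 and ZIC2 and was open in hPSC alone.

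From pluripotent cells to DE, more regions were lost than gained in both windows, the reverse of the genome. Of 35 ZIC1-ZIC4 regions open in either list, 4 were gained (11.4%) and 8 lost (22.9%), and of 47 ZIC2-ZIC5 regions 5 were gained (10.6%) and 7 lost (14.9%). The genome gained 27.2% and lost 15.8%. The share gained was thus under the genome share in both windows. An example of a region gained in DE and kept in every later list was chr3:147369345-147370055, inside LOC124909494, with 160 bp in DE, 395 in aNE, 584 in pNE and 469 to 683 bp on day 4.

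From DE to day 2 the windows, like the genome, gained a smaller share of regions on the anterior path than on the posterior one. Toward aNE, 3 of 30 ZIC1-ZIC4 regions (10.0%) and 3 of 43 ZIC2-ZIC5 regions (6.98%) were gained, against 6.75%, and 6 (20.0%) and 12 (27.9%) were lost, against 36.4%. Toward pNE, 12 of 39 (30.8%) and 8 of 48 (16.7%) were gained, against 17.4%, and 5 (12.8%) and 13 (27.1%) were lost, against 31.1%. The 2 comparisons share the DE list. The ZIC2-ZIC5 gains were near the genome share on both paths. The ZIC1-ZIC4 gain toward pNE was above the genome share, and the ZIC1-ZIC4 losses on both paths were below.

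Set against each other on day 2, pNE had more ZIC regions of its own than aNE. Around ZIC1-ZIC4, 13 of 37 regions open in either list (35.1%) had a peak in pNE alone, and 3 (8.11%) in aNE alone. Around ZIC2-ZIC5 the counts were 9 of 40 (22.5%) and 5 (12.5%). Over all regions the shares were 28.5% for pNE alone and 12.4% for aNE alone. The ZIC2-ZIC5 shares were thus near or below those of the genome. When both lists were cut to the widest peaks at the size of the smallest list, 5 ZIC1-ZIC4 regions were open in pNE alone and 5 in aNE alone, and of ZIC2-ZIC5 regions 4 in pNE alone and 6 in aNE alone. The excess in pNE was thus not seen at equal list size, and around ZIC2-ZIC5 its direction turned.

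The widest region open in pNE and not in aNE, chr3:147358384-147359712 beyond the far end of ZIC4, had a peak in every list except aNE, with 979 bp in hPSC, 805 in DE, 364 in pNE and 268 to 629 bp on day 4. The same held for chr13:99911530-99911925 in CLYBL-AS3, open in 9 lists with 188 to 286 bp. Others were chr3:147380531-147381087, with 130 bp in hPSC, 500 in DE, 190 in pNE, 117 in pNE_T and 496 to 523 bp in the aNE-derived lists, and chr13:99926128-99927001, with 709 bp in hPSC, 446 in DE, 133 in pNE, 133 to 177 in the aNE-derived lists, 196 in pNE_T and 703 in pNE_H. These 4 sites were open before day 2, had no peak in aNE and had one in all 3 aNE-derived lists on day 4. That did not hold for chr13:99876858-99877326 in CLYBL, which had no peak in DE, aNE or aNE_T. It had 280 bp in hPSC, 244 in pNE, 283 in aNE_M, 349 in aNE_H and 129 to 315 bp in the pNE-derived lists. A region that was new on day 2 was chr3:147388654-147389190 in ZIC4 and ZIC4-AS1, with 483 bp in pNE, 154, 487 and 506 in aNE_T, aNE_M and aNE_H, 344 in pNE_M and 186 in pNE_H.

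Most regions open in aNE and not in pNE had a peak in hPSC or DE. The share over all such regions was not computed. Genome-wide, 6.75% of regions open in DE or aNE were gained in aNE. The widest, chr13:100057976-100058923 at 76.7 kb past the ZIC2 start and at the promoter of the lncRNA LOC124903200, was covered by 948 bp in hPSC, 787 in DE, 432 in aNE and 291 in aNE_T and had no peak in the other 6 lists. The same 4 lists were the open ones at chr13:99956400-99956742, with 150, 227, 308 and 314 bp. Likewise, chr13:99978472-99978778 between ZIC5 and ZIC2, was open in hPSC, DE, aNE, aNE_T and pNE_T with 129 to 294 bp. These 3 sites had no peak in pNE, and of the aNE-derived lists only aNE_T had one. Near ZIC1-ZIC4, chr3:147390842-147391197 inside ZIC4 was open in hPSC (356 bp) and aNE (241 bp) only, chr3:147341229-147341464 in DE and aNE only, and chr3:147424204-147424589 in DE, aNE and 5 day 4 lists. Open on day 2 alone were narrow sites only, of which the widest were chr13:100077526-100077798 (273 bp, aNE), chr3:147449291-147449443 and chr13:99893666-99893818 (153 bp each, pNE).

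After day 2 the paths into the 3 media shared their day 2 list within each origin, so their counts are not independent. From aNE to aNE_T, 8 of 32 ZIC1-ZIC4 regions (25.0%) and 9 of 40 ZIC2-ZIC5 regions (22.5%) were gained, against 25.5%, and 4 (12.5%) and 2 (5.0%) lost, against 11.4%. To aNE_M, 11 of 35 (31.4%) and 6 of 37 (16.2%) were gained, against 32.8%, and 3 (8.57%) and 7 (18.9%) lost, against 12.4%. To aNE_H, 12 of 36 (33.3%) and 12 of 43 (27.9%) were gained, against 31.7%, and 3 (8.33%) and 7 (16.3%) lost, against 16.9%. The ZIC1-ZIC4 gains stayed within 2 points of the genome in all 3 media, while those of ZIC2-ZIC5 in midbrain medium were under it by a wide margin.

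On the posterior path, pNE to pNE_T gained 9 of 43 ZIC1-ZIC4 regions (20.9%) and 7 of 42 ZIC2-ZIC5 regions (16.7%), against 26.0%, and lost 12 (27.9%) and 12 (28.6%), against 21.9%. Into pNE_M 16 of 50 (32.0%) and 7 of 42 (16.7%) were gained, against 24.7%, and 8 (16.0%) and 12 (28.6%) lost, against 21.1%. Into pNE_H 17 of 51 (33.3%) and 18 of 53 (34.0%) were gained, against 41.1%, and 4 (7.84%) and 6 (11.3%) lost, against 8.32%. ZIC2-ZIC5 thus lost more than it gained in telencephalon and midbrain medium and gained more than it lost in hindbrain medium. At equal list size the rise in hindbrain medium was not seen, with 29 open ZIC2-ZIC5 regions in pNE and 24 in pNE_H. A ZIC1 site with less cover after this path was chr3:147412589-147413505 in the gene body, covered by 829 bp in hPSC, 897 in DE, 875 in aNE, 593 in pNE, 668 in aNE_T, 903 in aNE_M, 715 in aNE_H, 136 in pNE_M and 462 in pNE_H and by no peak in pNE_T. Its cover was lower in each pNE-derived list than in any other list, though in pNE_H it was not far below that in pNE.

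Cells of the 2 origins were then compared in the same medium. In telencephalon medium, 10 of 38 ZIC1-ZIC4 regions (26.3%) and 6 of 44 ZIC2-ZIC5 regions (13.6%) were open in pNE_T and not in aNE_T, against 27.2%, and 7 (18.4%) and 14 (31.8%) in aNE_T and not in pNE_T, against 20.8%. In midbrain medium, 14 of 46 (30.4%) and 7 of 37 (18.9%) were open in pNE_M and not in aNE_M, against 22.8%, and 4 (8.7%) and 7 (18.9%) the other way, against 24.1%. In hindbrain medium, 16 of 49 (32.7%) and 18 of 54 (33.3%) were open in pNE_H and not in aNE_H, against 42.3%, and 2 (4.08%) and 7 (13.0%) the other way, against 9.47%. By count, more ZIC1-ZIC4 regions were open in the posterior than in the anterior origin alone in every medium, and fewer ZIC2-ZIC5 regions were in telencephalon medium. Over all regions the posterior share was also the higher in telencephalon and hindbrain medium, and the lower in midbrain medium. The posterior share of ZIC1-ZIC4 was above that of the genome in midbrain medium only. At equal list size the open ZIC1-ZIC4 regions numbered 24 in both aNE_T and pNE_T, 27 in aNE_M and 32 in pNE_M, and 28 in aNE_H and 30 in pNE_H, so the excess was not seen in telencephalon medium. The difference between the windows was not tested.

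Regions open in all 3 day 4 lists of an origin and in none of the other were few in both windows. Around ZIC1-ZIC4, 4 of the 57 regions open on day 4 (7.02%) were open in all 3 pNE-derived lists and no aNE-derived list, against 2.77% of all regions, and 1 (1.75%) was the reverse, against 0.752%. Around ZIC2-ZIC5 there were 1 of 65 (1.54%) and 2 (3.08%). Of 20033 protein-coding gene windows drawn the same way, 4.06% held 4 or more such posterior regions, and the median window held 1. All 4 lay more than 50 kb from either gene, so none was left with a flank of 50 kb, and 1 of the 4 kept the pattern where peaks had to cover 50% of the region.

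The 4 posterior regions of ZIC1-ZIC4 opened on day 4 and had no peak in hPSC, DE, aNE or pNE. On the ZIC4 side, chr3:147311843-147312223, 97.3 kb before the ZIC1 start, was covered by 358 bp in pNE_T, 131 in pNE_M and 123 in pNE_H. The other 3 lay inside the lncRNA gene LOC440982, downstream of ZIC1. At 70.6 kb past the ZIC1 start, chr3:147479851-147480131 had 151 bp in pNE_T, 148 in pNE_M and 281 in pNE_H. At 81.4 kb, chr3:147490554-147491044 had 194, 125 and 491 bp. At 83.2 kb, chr3:147492161-147492880 had 468, 254 and 720 bp, the widest ZIC1-ZIC4 region open on day 4 only apart from the one at the end of ZIC4. The 3 downstream regions were all widest in pNE_H, and the upstream one in pNE_T.

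**Figure D4:**
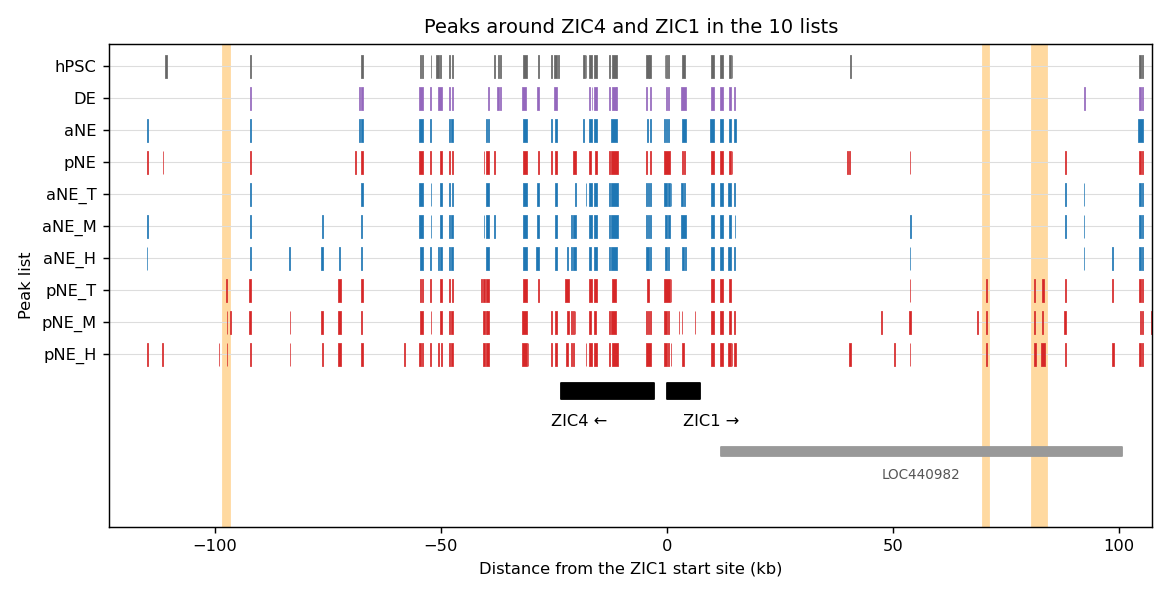
Peaks of the 10 lists (rows; 1 tick per peak, outlined so that narrow peaks show) by distance in kb from the ZIC1 start site, with the bodies of ZIC4, ZIC1 and LOC440982 below and slightly widened shading on the regions open in all 3 pNE-derived and no aNE-derived day 4 list. The shaded regions lie 97.3 kb before the start and 70.6, 81.4 and 83.2 kb past it, and they are empty in the upper 7 rows.

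The reverse pattern was rarer and reached back to earlier days. Around ZIC1-ZIC4 it was chr3:147501503-147501720, also in LOC440982, with 218 bp in DE, 140 in aNE_T, 133 in aNE_M and 134 in aNE_H. Around ZIC2-ZIC5, chr13:99907995-99908463 in CLYBL had 369 bp in hPSC, 469 in DE and 273, 194 and 250 bp in the 3 aNE-derived lists. The other, chr13:100079730-100080711 at 98.4 kb past the ZIC2 start, narrowed from 982 bp in hPSC and 890 in DE to 125 in aNE and 282 in pNE and was 144, 346 and 190 bp in the aNE-derived lists. All 3 were open in DE, so in the ZIC windows no region was opened anew on day 4 in all 3 aNE-derived lists alone. The posterior region of ZIC2-ZIC5, chr13:99960784-99961471 just beyond ZIC5, had 160 bp in DE, 270 in pNE_T, 329 in pNE_M and 678 in pNE_H. Next to it, chr13:99959394-99960423 had no peak in hPSC or DE, 197 bp in aNE, 460 in pNE, 214, 487 and 458 in the aNE-derived lists and 771, 984 and 993 in the pNE-derived lists, so the 2 origins did not overlap in width there.

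**Figure D5:**
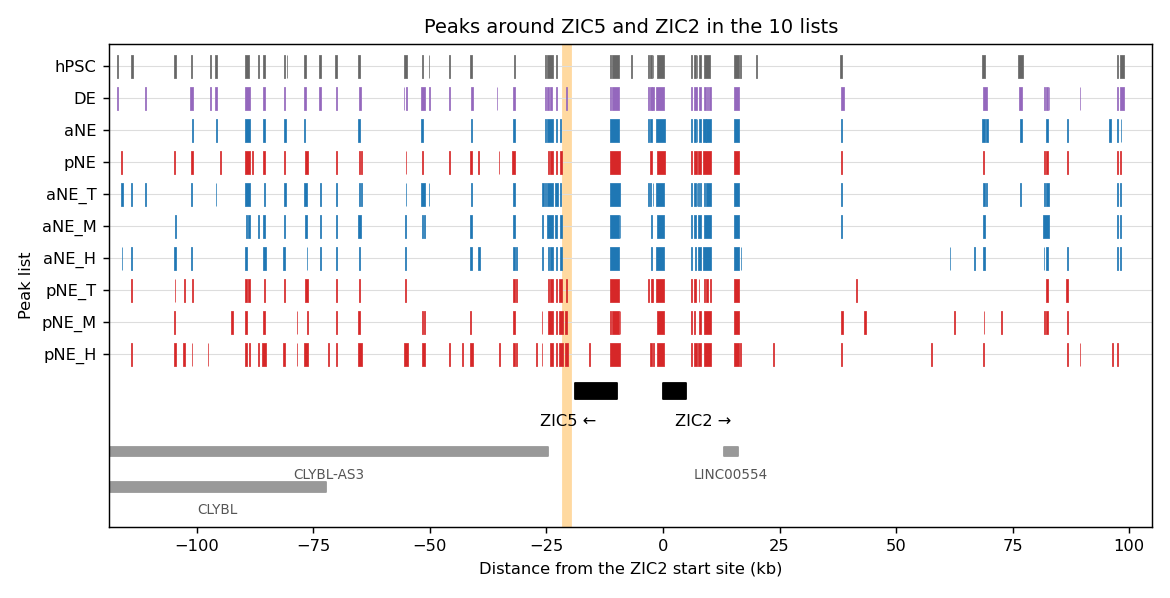
Peaks of the 10 lists (rows; 1 tick per peak, outlined so that narrow peaks show) by distance in kb from the ZIC2 start site, with gene bodies below and slightly widened shading on the region 20.7 kb before the start that is open in all 3 pNE-derived and no aNE-derived day 4 list. Ticks at the ZIC5 and ZIC2 starts and in the 17.9 kb from ZIC2 onward are present in all 10 rows.

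Most regions open on day 4 only were open in pNE-derived lists only, as in the genome. Of the 22 ZIC1-ZIC4 regions 15 (68.2%) were open in pNE-derived lists only, and of the 19 ZIC2-ZIC5 regions 15 (78.9%), against 69.7%. In aNE-derived lists only there were 0 (0.0%) and 2 (10.5%), against 15.0%. The widest of this class in the ZIC1-ZIC4 window besides those already given was chr3:147336710-147337349, with 263 bp in aNE_H, 566 in pNE_T, 640 in pNE_M and 604 in pNE_H. In the ZIC2-ZIC5 window they were chr13:99955733-99956149, open in all 3 aNE-derived lists, pNE_M and pNE_H with 119 to 321 bp, chr13:99878900-99879294 in pNE_T and pNE_H, and chr13:100024922-100025295 in pNE_M alone. The narrowest peak kept was 115, 114 and 109 bp wide in pNE_T, pNE_M and pNE_H and 122, 122 and 126 bp in the aNE-derived lists, and its part in these counts was not tested.

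Total open sequence of the origins on day 4 overlapped in both windows, and no difference passed a test. Around ZIC1-ZIC4 it was 14541 ± 761.7 bp (SD, n = 3 lists in 3 media, which are not replicates) for aNE-derived and 16332 ± 2935.1 bp for pNE-derived lists, a difference of 1791 bp (exact two-sided permutation test, p = 0.4, adjusted over the 2 windows 0.8). The difference was 377 bp without the hindbrain lists and 635.7 bp at equal list size. Around ZIC2-ZIC5 it was 17545.3 ± 1558.4 and 17107.7 ± 4244.2 bp, a difference of -437.7 bp (exact permutation p = 0.9, adjusted 0.9). With 3 lists against 3 the smallest possible p is 0.1. Divided by the open sequence of each list, the ZIC2-ZIC5 difference was -31 bp per Mb with p = 0.1 by the same exact test, the smallest it can give, and that of ZIC1-ZIC4 turned to -2.6 bp per Mb (exact p = 0.8). Within a medium, the pNE-derived list had more open ZIC1-ZIC4 sequence in 3 of 3 media, by 189 bp in telencephalon, 565 in midbrain and 4619 in hindbrain medium. Paired by medium, an exact permutation test of these 3 differences gave p = 0.25, the smallest it can give. At equal list size only the hindbrain pair kept that direction, with 16517 bp in pNE_H and 14067 in aNE_H, against 12737 in pNE_T and 12824 in aNE_T and 13710 in pNE_M and 14166 in aNE_M. Around ZIC2-ZIC5 the differences within a medium were -5030, -2117 and 5834 bp (exact paired permutation p = 1.0). The ranges of the origins overlapped in bp in both windows, and they did not overlap for ZIC2-ZIC5 per Mb. Nor did they overlap per Mb for the median protein-coding window, which was also lower in the pNE-derived lists.

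The step from telencephalon to hindbrain medium went opposite ways in the 2 origins around ZIC2-ZIC5, as it did for the open sequence of the whole lists. In aNE-derived cells open sequence was 19223 bp in telencephalon, 17270 in midbrain and 16143 in hindbrain medium, and in pNE-derived cells 14193, 15153 and 21977. From telencephalon to hindbrain medium it thus changed by -3080 bp in aNE-derived and by 7784 bp in pNE-derived lists, and the number of open regions by -2 and 17. Around ZIC1-ZIC4 the values changed in the same direction in both origins, by 1291 bp and 5 regions in aNE-derived and by 5721 bp and 16 regions in pNE-derived lists. In all, open sequence was 87.2 Mb in aNE_T and 84.0 in aNE_H, and 89.4 in pNE_T and 129 in pNE_H. The median protein-coding window held 11536 and 10630 bp in the first 2 lists and 11001 and 14580 bp in the other 2. Of all regions, 38.0% were open in aNE_T, 38.9% in aNE_H, 41.3% in pNE_T and 60.9% in pNE_H. Each value is from 1 list and was not tested. In lists cut to the size of the smallest, the ZIC2-ZIC5 changes were -2481 and 4711 bp, but the change in regions of the pNE-derived lists was -1, so the higher number of regions in pNE_H was not seen at equal list size.

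The GLI and GLIS genes, which encode related zinc finger factors, had windows with more regions than the median gene. The 6 windows (GLI1, GLI2, GLI3, GLIS1, GLIS2 and GLIS3) held a median of 118.5 regions, 5.5 open in aNE alone and 15 in pNE alone on day 2, against 47, 3 and 5 over all protein-coding windows. Their gene bodies, and so their windows, differ in length. Each of the 6 had 1 or 2 regions open in all 3 pNE-derived and no aNE-derived day 4 list, fewer than the 4 of ZIC1-ZIC4.

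Genes of the dorsal neural tube and neural plate border, where ZIC genes are known to act, were counted in the same way. For the 15 genes (among them PAX3, MSX1, LMX1A, WNT1, ATOH1 and SOX10) the medians were 56 regions, 4 in aNE only and 7 in pNE only on day 2, again beside 47, 3 and 5. Of the 15, 7 had at least 1 posterior day 4 region of the kind seen at ZIC1-ZIC4, and none had 4. That is 46.7% of the list, near the 50.1% of all protein-coding windows that had at least 1. The highest count was 3, at PAX3, ATOH1 and MSX2, which encode a dorsal paired-box factor, the factor of rhombic lip progenitors and a border homeodomain factor.

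The protein-coding windows whose level followed the ZIC windows most closely were sought among genes at least 1 Mb away. For ZIC1-ZIC4 they were C3orf38 (Pearson r 0.958), NR4A2 (0.948), SHOX2 (0.932), TLR2 (0.93) and GEN1 (0.929), from log2 open bp per total over 10 lists and 19545 genes. For ZIC2-ZIC5 they were SBF2 (0.987), MRM2 (0.987), ATPSCKMT (0.985), SERBP1 (0.979) and CLSTN1 (0.979), over 19540 genes. All values of a list share its libraries, depth and threshold, and with so many genes the highest of them are high by selection. SBF2 had 379 bp per Mb in hPSC and 216 in pNE_T, its highest and lowest lists, and these were the highest and lowest lists of ZIC2-ZIC5 too.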

How the data were processed

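OmniATAC-seq was made from H1 cells in 30 libraries, per the labels. The authors deposited 1 list of peak positions per group (chromosome, start and end) with no score. The submitters' processing notes name hg38, Bowtie2, MACS2 and bedtools, without versions or roles. How the 3 replicates were combined and which threshold was used are not given in the sources used here, and both would move every count. Labels do not tie replicates to separate cultures beyond calling them biological.

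Of the sequences in the lists, chromosomes 1 to 22, X and Y were used. Peaks of different lists that overlapped by 1 bp or more formed 1 region. Windows were the gene bodies of a pair in RefSeq GRCh38.p14 with 100 kb on each side. Open sequence is the number of bases inside peaks, also per Mb of the list. A gain or loss is counted over regions open in either list. Promoters came from a RefSeq table of 35116 start windows, and the upstream sequences are credited to it. The named regions were those within 1 kb of a member's end and all regions of 1 day 4 origin. Others were drawn from the 3 widest of each class of days and of aNE or pNE alone on day 2. Not every region of those classes is named here. The 5 genes most like each pair had the highest Pearson r of log2 open sequence per total, with a pseudocount of 1 bp, at least 1 Mb away. A related gene and a marker on the lists were not analysed here. Members and lists were chosen with earlier results of these data known.

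Alternatives changed the flank (50 or 25 kb), the cover that counts as open (50%), list size (the widest 167792 peaks), gene ends (regions within 1 kb left out), peak extent (500 bp) and scale. The exact permutation test ran over the 6 day 4 lists, and, added after seeing the data, over the 3 media as pairs. The code recovered regions, classes and bases on simulated data. No genome sequence or protein was used here. Python 3.11.15, numpy 2.4.6, pandas 2.3.3, scipy 1.17.1 and matplotlib 3.10.9 were used.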

Additional observations from a re-analysis of the deposited data

Results flagged for a closer look

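Around ZIC2-ZIC5 the change from telencephalon to hindbrain medium had opposite signs in the 2 origins. Open sequence changed by -3080 bp in aNE-derived and by 7784 bp in pNE-derived lists, which differ by 10864 bp. The number of open regions changed by -2 and by 17, which differ by 19. Each value rests on 1 list per medium and origin, and the difference was not tested. The pNE_H list also held the most open sequence of the series, 129 Mb against 84.0 Mb in aNE_H, and its part in the difference was not tested. Open sequence of the whole lists had the same opposite signs, with 87.2 Mb in aNE_T and 89.4 Mb in pNE_T. So had the median protein-coding window, at 11536 bp in aNE_T, 10630 in aNE_H, 11001 in pNE_T and 14580 in pNE_H. In lists of equal size the change in regions was -1 in pNE-derived and -2 in aNE-derived lists, and the changes in sequence kept their opposite signs, at 4711 and -2481 bp.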

How the results depend on the processing

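No paired analysis was possible because, for replicate numbers, the lists pool the 3 replicates of a group and hold no value per library. For the same reason no replicate could be left out. Lists, depths and thresholds limit all counts, since a peak under the threshold of 1 list reads as closed there. Of the 24 counts of day 2 regions, 14 stayed within 1.5 times the main count, as did 60 of 96 counts by days, 79 of 100 values of open sequence and 87 of 120 counts of open regions. Where a value moved, narrower windows hold fewer regions by construction, and the cause was otherwise not tested.

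Around ZIC1-ZIC4 the difference in open sequence between the day 4 origins was 377 bp without the hindbrain lists, 635.7 bp at equal list size and 307.3 bp with a flank of 50 kb, against 1791 bp. It reversed there to -345 bp with a flank of 25 kb and to -2.6 bp per Mb. Around ZIC2-ZIC5 it reversed to 693 bp and 346.3 bp with flanks of 50 and 25 kb, to 825.7 bp away from gene ends and to 292.3 bp with windows of 500 bp. Without the hindbrain lists it was -3573.5 bp, against -437.7 bp (exact permutation p = 0.333333). In no setting could the exact test pass 0.05, and pairing by medium, an alternative chosen after seeing the data, gave p = 0.25 and 1.0 (exact permutation).

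With a flank of 50 kb, ZIC1-ZIC4 kept 11 regions of day 4 only, 3 of days 2 and 4, 1 of days 0-1 and 4, and 0 open in all 3 lists of either day 4 origin alone. ZIC2-ZIC5 had 8 of day 4 only, 3 of days 2 and 4, 0 of day 2 only, 4 of days 0-1 and 4, 3 of days 0-1 only, 8 of all stages but not all lists, 2 of aNE alone and 4 of pNE alone on day 2, and 0 of all 3 aNE-derived lists. Its open sequence moved in hPSC and DE (12524 and 12947 bp), and its open regions were 18 to 28.

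With a flank of 25 kb, ZIC1-ZIC4 had 7 regions of day 4 only, 2 of days 2 and 4, 0 of day 2 only, 1 of days 0-1 and 2, 1 of days 0-1 and 4, 6 of pNE alone on day 2, and 0 of either origin alone. ZIC2-ZIC5 had 6 of day 4 only, 3 of days 2 and 4, 0 of day 2 only, 3 of days 0-1 and 4, 3 of days 0-1 only, 4 of all stages but not all lists, 2 each of aNE and of pNE alone, and 0 of all 3 aNE-derived lists. The step from telencephalon to hindbrain medium in aNE-derived lists reversed to 13 bp.

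Where peaks had to cover 50% of a region, ZIC1-ZIC4 had 7 regions open in all 10 lists, 6 of days 0-1 and 4, 8 of pNE alone on day 2, and 2 of each day 4 origin alone, of which 1 each had that pattern at 1 bp. ZIC2-ZIC5 had 6 open in all 10, 16 of days 0-1 and 4, 1 of days 0-1 and 2, and 0 of all 3 aNE-derived lists.

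In lists of equal size, ZIC1-ZIC4 had 5 regions of aNE alone and 5 of pNE alone on day 2, 1 of days 0-1 and 2 and 0 of days 0-1 and 4. ZIC2-ZIC5 had 4 of pNE alone and 6 of aNE alone, 1 of day 2 only, 9 of day 4 only, 2 of days 0-1 and 2, 5 of days 0-1 and 4 and 3 of days 0-1 only, and its change in regions from pNE_T to pNE_H reversed to -1. The pNE_H list then had 30 and 24 open regions around ZIC1-ZIC4 and ZIC2-ZIC5. Away from gene ends, ZIC2-ZIC5 had 9 regions open in all 10 lists, 3 of aNE alone on day 2 and 1 of all 3 aNE-derived lists. With windows of 500 bp, ZIC1-ZIC4 had 1 region of day 2 only, 0 of days 0-1 and 2 and 1 of days 0-1 and 4.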

Other observations

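The interval between the outer starts is 2822 bp for ZIC1-ZIC4 and 9875 bp for ZIC2-ZIC5, and it held 1 and 5 regions. The body of ZIC2 held no region beyond the one at its start, and that of ZIC4 held 10, of which 4 were open in all 10 lists. Of the 15 ZIC1-ZIC4 regions open in a single list, pNE_M had 6 and pNE_H 4, and DE, aNE and the aNE-derived lists had none. Of the 22 of ZIC2-ZIC5, pNE_H had 8, pNE_M 4 and hPSC 3. The share of regions in common between aNE and pNE was 0.568 of those open in either around ZIC1-ZIC4 and 0.65 around ZIC2-ZIC5, beside 0.591 over all regions.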
